A study of Mus musculus with 2 samples.

Results

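Interferon-stimulated genes are the genes that a cell switches on after interferon binds its receptor. A list of 37 of them was followed here by gene symbol through the cell classes of whole mouse lung, and all 37 were among the 27998 genes of the files. The list was drawn up from the known biology of the pathway, though with earlier results of these data known. The data are single-cell RNA sequencing of 2 lungs, 1 labelled control and 1 labelled fibrosis, from male C57Bl/6J mice of 3 months. Particles had been placed in the trachea at 100 µg, and lungs were taken on day 14. The agents named are titanium dioxide and crocidolite asbestos, a fibre that scars the lung. Every sample's protocol names both and ties neither to a mouse, so each library goes by its label, control or fibrosis, and what separates their treatment is known only by that label. Neither mouse is described as carrying an altered allele.

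Type I interferons signal through the receptor IFNAR1-IFNAR2 and the kinases JAK1 and TYK2 to a complex of transcription factors that includes STAT2 and IRF9 and binds the interferon-stimulated response element in DNA. Type III interferons reach the same complex through a receptor found mainly on epithelium and neutrophils, and type II interferon acts mainly at a different site, the gamma-activated sequence. The induced genes include sensors of viral nucleic acid (Ifih1, Ddx58, Dhx58, Zbp1), factors that amplify the response (Irf7, Irf9, Stat2), the ubiquitin-like protein ISG15 with the protease that removes it (Usp18) and a ligase of its family (Herc6), proteins that act on RNA (the Ifit and Oas genes) and other effectors such as viperin (Rsad2), tetherin (Bst2) and Ifitm3, a membrane protein that blocks viral fusion. Several, among them Ifitm3, Bst2, Ifi27l2a and Ms4a4c, are also expressed by some resting cells. A subset of 21 genes that are usually low without interferon, from Ifit1 and Isg15 to the sensors, was therefore summed separately and is called the antiviral genes here.

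The DNA letters that the response complex reads were found in many of the members. Promoters, taken as 250 bases before to 50 after the start in RefSeq on GRCm38.p6, were matched for 28 of the 37 members. The core of the response element was searched as GAAA and GAAA with any 2 bases between. For the other strand it was TTTC and TTTC with any 2 bases between. On either strand the core occurred in 15 of the 28 (53.6%), against 3.99% of the 27025 genes with a promoter in RefSeq. A gene counted when any promoter listed for it matched. The gamma-activated sequence, searched as TTCNNNGAA, which reads the same on both strands, occurred in 6 of the 28 (21.4%), against 9.55% of all. A match describes letters and not binding. Stretches around the matches follow for 7 members whose levels recur below, 5′ to 3′ on the gene's strand, with every base of a match to the response element in capitals and overlapping matches run together. On GRCm38 the Isg15 stretch is chr4:156200855-156200916 on the minus strand, Ifit1 chr19:34640765-34640833 on the plus strand, Ifit3 chr19:34583353-34583436 on the plus strand, Rsad2 chr12:26456543-26456592 on the minus strand, Oas3 chr5:120777705-120777754 on the minus strand, Bst2 chr8:71537567-71537622 on the minus strand and Ifi205 chr1:174031860-174031909 on the minus strand. All lie before the RefSeq start, outside any exon of the gene.
Isg15: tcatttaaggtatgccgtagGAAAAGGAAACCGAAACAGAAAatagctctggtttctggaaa
Ifit1: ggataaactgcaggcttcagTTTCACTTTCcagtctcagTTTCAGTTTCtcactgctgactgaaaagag
Ifit3: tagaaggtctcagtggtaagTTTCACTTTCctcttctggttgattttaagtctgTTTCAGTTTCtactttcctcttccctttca
Rsad2: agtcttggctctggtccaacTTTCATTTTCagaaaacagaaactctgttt
Oas3: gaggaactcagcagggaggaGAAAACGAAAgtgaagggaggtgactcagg
Bst2: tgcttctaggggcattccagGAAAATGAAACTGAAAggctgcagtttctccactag
Ifi205: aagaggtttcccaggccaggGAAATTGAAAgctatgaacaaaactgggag
Isg15 held 3 overlapping matches in one run. Ifit1 and Ifit3 each held a pair of separate copies, Bst2 a pair that overlapped, and Rsad2, Oas3 and Ifi205 a single copy.

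After filtering, 7510 control and 6777 fibrosis cells remained, with a median of 3691 and 4287 unique molecular identifiers (UMIs) per cell. UMIs count captured RNA molecules at the 3′ end. Levels are given as CPM, the UMIs of a gene per 1000000 UMIs of the pooled cells of a class, and 3′ counting does not scale with gene length. Cells were gated into classes by at least 3 different marker genes, none of them a member, and are called AT2-like, neutrophil-like and so on. In 12 classes each library had at least 50 cells, and 7 smaller ones are described only by level. As each group is 1 library from 1 mouse, no difference between them could be tested against variation among mice, and every interval covers counting error only (95%, exact Poisson for a level, exact conditional binomial for a ratio, Clopper-Pearson for a share). The libraries shared 89 cell barcodes. Ifitm3 gave 46.4% of all member UMIs in control and 36.9% in fibrosis, and Ifi27l2a gave 21.8% and 23.6%, so sums over all 37 mostly follow this pair.

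Summed over all members, the classical monocyte-like cells were at 7630 CPM in control and 7863 CPM in fibrosis, and the nonclassical monocyte-like cells at 6145 and 5867 CPM. Plasmacytoid dendritic cell-like cells, 50 and 36 in number, held 6061 and 4977 CPM. The AT2-like cells, which make surfactant, were lowest of the 12 larger classes at 262 and 301 CPM. These monocyte levels were mainly Ifitm3, at 4005 and 3874 CPM in the classical monocyte-like cells.

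The antiviral genes gave another order. Neutrophil-like cells led in the control library at 973 CPM (interval 921 to 1028), and classical monocyte-like cells led in the fibrosis library at 663 CPM, against 661 CPM in the control. Endothelial-like cells were at 602 and 500 CPM and nonclassical monocyte-like cells at 518 and 397 CPM. Alveolar macrophage-like cells, the resident phagocytes of the airspace, were at 141 and 116 CPM. AT2-like cells were again lowest, at 55.0 and 58.5 CPM.

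**Figure D1:**
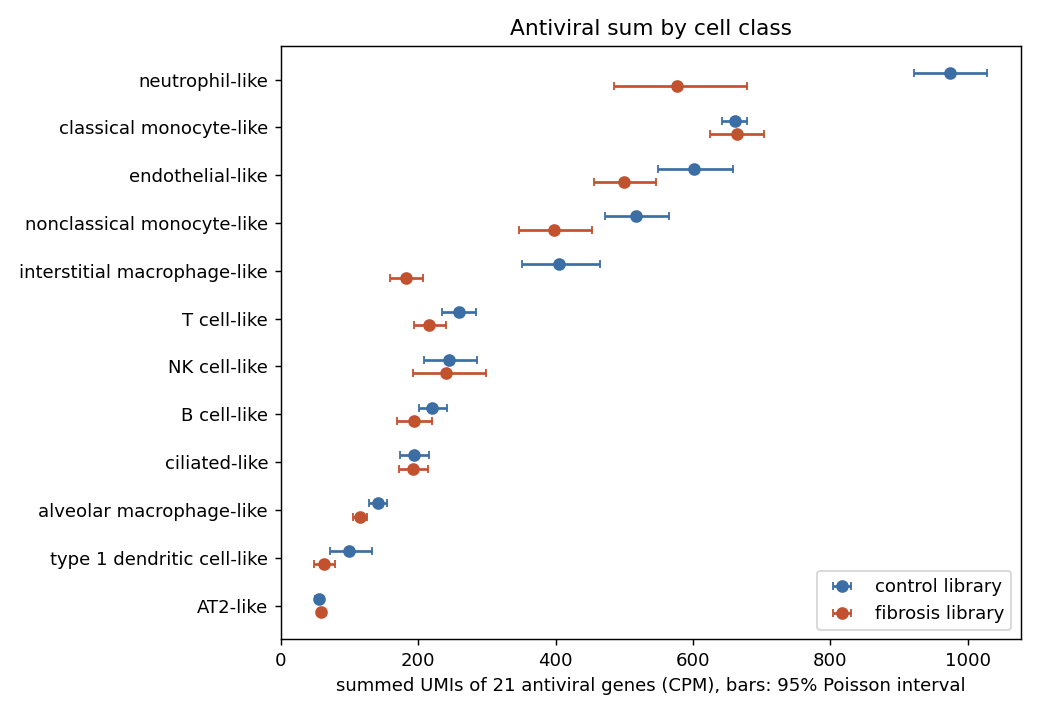
Summed level of the 21 antiviral genes (CPM) in each of the 12 larger cell classes, in the control and the fibrosis library. Points are single libraries and bars are 95% Poisson intervals of the count. With all cells counted, the gap between the libraries is clearest in neutrophil-like (973 and 576 CPM) and interstitial macrophage-like cells (405 and 182 CPM). Without 2 control cells the macrophage values are 228 and 182 CPM.

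By role, the sensors split between classes. The DNA and RNA sensor Zbp1 was highest in monocyte-like cells, at 119 CPM in both the classical and the nonclassical cells of the control library, and the RNA sensor Ifih1 was highest in control endothelial-like cells, at 59.3 CPM. Ifi205, of the PYHIN family of nucleic acid sensors, was highest in the type 1 dendritic cell-like cells, at 228 and 185 CPM. The next class of at least 20 cells, fibroblast-like cells, was at 18.1 and 22.2 CPM. Of all Ifi205 UMIs, the type 1 dendritic cell-like cells held 101 of 274 in control and 206 of 359 in fibrosis. Ifi204, a near relative of Ifi205, was instead highest in classical monocyte-like cells, at 222 and 229 CPM. Both belong to a family of similar genes, so reads could have been split between them.

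Irf7, the factor that amplifies type I interferon production, was highest in the plasmacytoid dendritic cell-like cells, at 249 and 187 CPM, followed in each library by the classical monocyte-like cells at 103 and 79.3 CPM. The same dendritic cells, the classical producers of type I interferon, held tetherin (Bst2) at 4191 and 3651 CPM, with at least 1 Bst2 UMI in 100% of cells in both libraries. The next class, endothelial-like cells, held Bst2 at 495 and 444 CPM. Bst2 is also a known surface marker of this dendritic cell.

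In the ISG15 system, the level of Isg15 was highest in control neutrophil-like cells at 143 CPM, and in fibrosis in endothelial-like cells at 85.2 CPM. The protease Usp18 followed another order and was highest among the larger classes in ciliated-like cells, at 69.5 and 52.5 CPM, where 51.7% and 44.6% of cells held a UMI. Isg20, an exonuclease that degrades RNA, was also high in these cells, at 86.9 and 79.3 CPM. Isg15 itself was at 12.2 and 6.41 CPM in the ciliated-like cells.

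Among the genes acting on RNA, Oas3 was highest in neutrophil-like cells, at 62.1 and 77.1 CPM. Oasl2 was at 180 CPM in control and 69.0 CPM in fibrosis neutrophil-like cells and at 218 and 166 CPM in the mesothelial-like cells that line the lung surface, of which there were 31 and 33. Ifit3 was highest in the AT1-like cells, the thin cells of the gas-exchange surface, at 108 and 124 CPM, with a UMI in 31.2% of 32 and 45.0% of 40 cells. Ifit3 was under 2 CPM in the AT2-like cells of either library (1.16 and 0.57 CPM). Ifit3 and Ifit3b are near-identical, as are members of the Oas1a family, so these counts are uncertain.

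Among the remaining members, Gbp2, a guanylate-binding protein, was highest in mesothelial-like cells at 218 and 223 CPM. Mx1 reached 98.6 CPM in 72 migratory dendritic cell-like cells of the fibrosis library, where the next class, classical monocyte-like cells, was at 12.9 CPM; C57Bl/6 mice carry a defective allele of Mx1. Ms4a4c was high in classical monocyte-like (448 and 348 CPM) and B cell-like cells (198 and 170 CPM). Ifi44 had the fewest UMIs of any member, 32 and 61 over all cells. For 21 of the 37 members the same class was highest in both libraries.

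**Figure D2:**
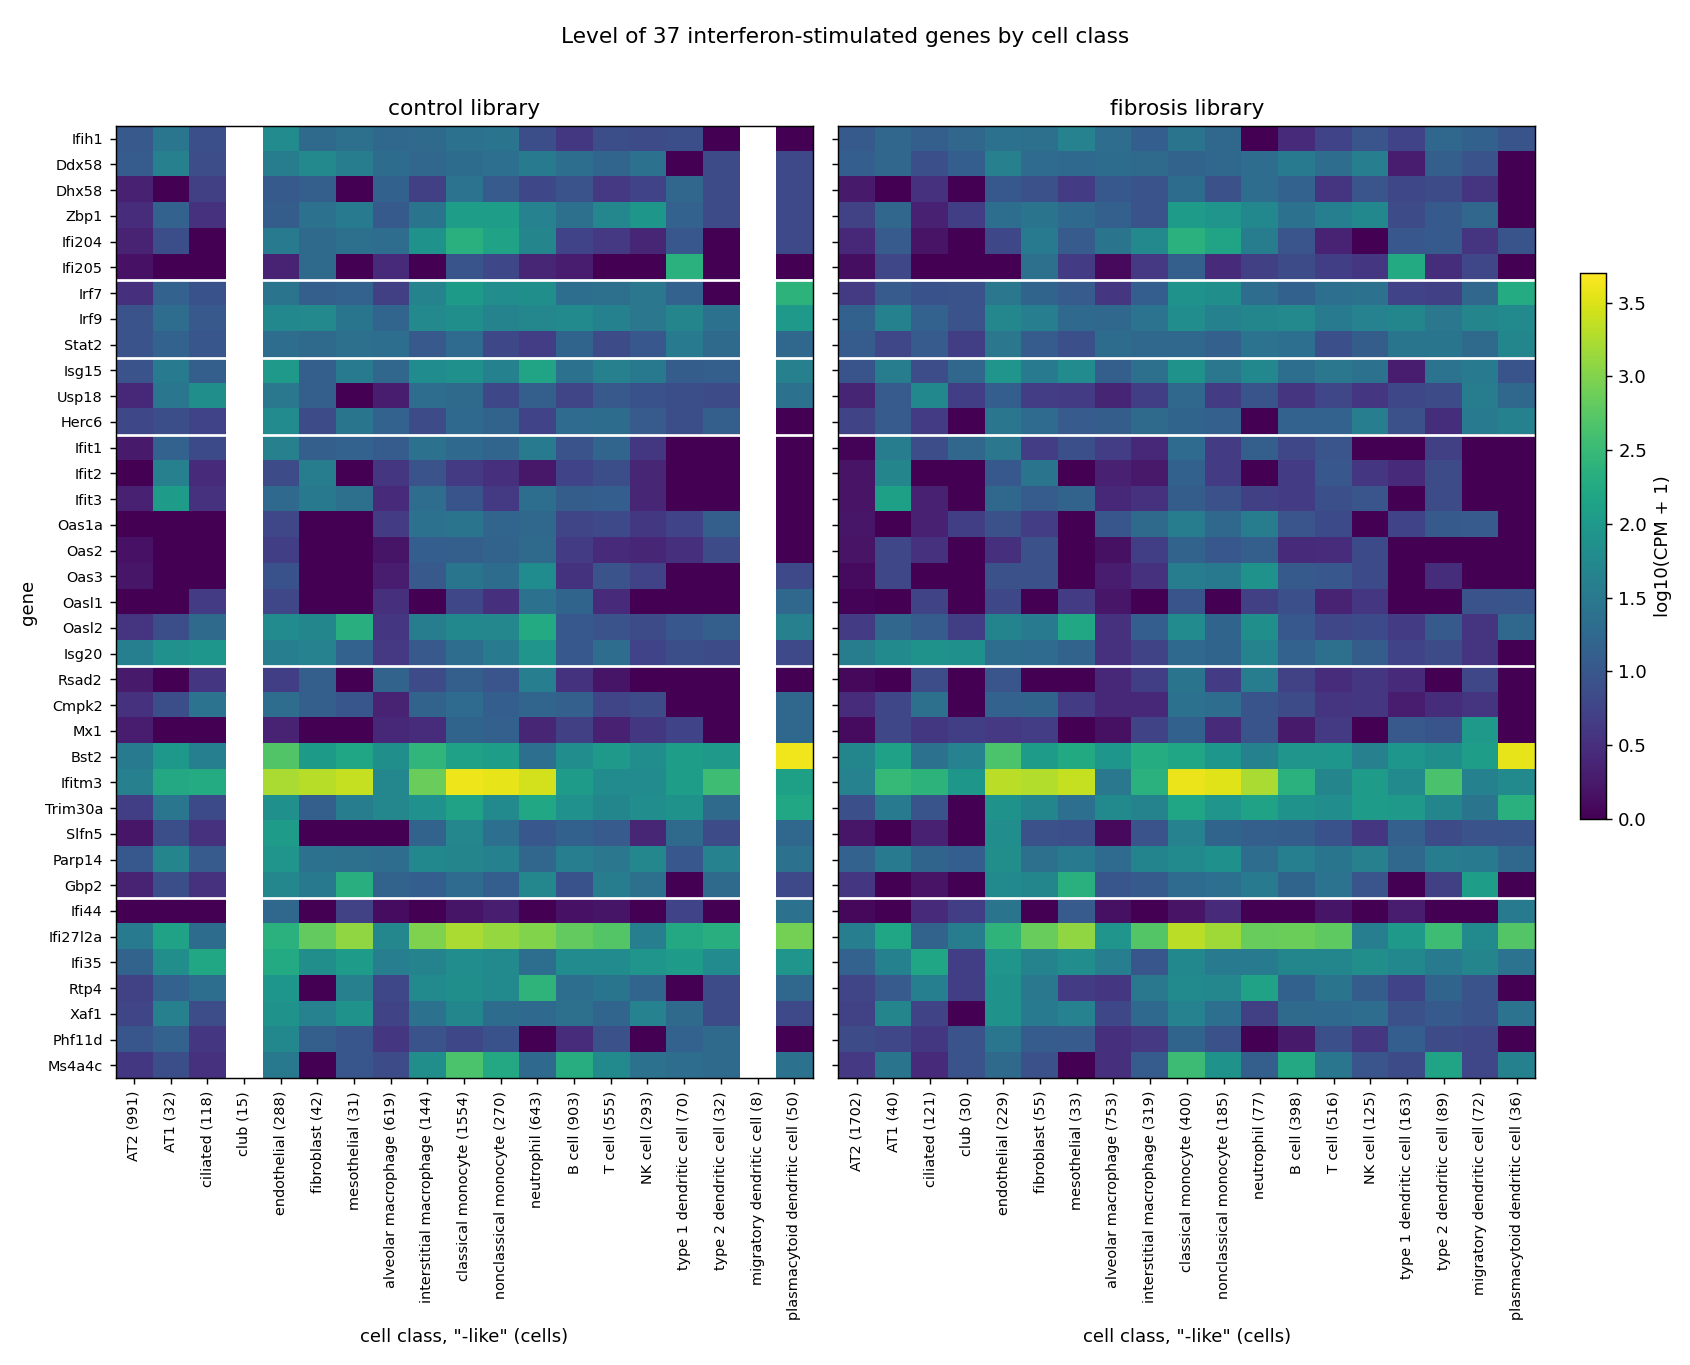
Level of each of the 37 members, in order of role, by cell class in the control and the fibrosis library, as log10 of CPM plus 1, with the number of cells of each class in brackets and classes under 20 cells left white. Bst2 and Irf7 are highest in plasmacytoid dendritic cell-like cells and Ifi205 in type 1 dendritic cell-like cells. Among the larger classes Usp18 is highest in ciliated-like cells. Ifitm3 and Ifi27l2a are high in most myeloid and stromal classes.

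The interferons themselves were almost not seen. The 16 type I interferon genes, 13 of them alpha, gave 1 control UMI, from Ifnk, and 0 fibrosis UMIs, and 2 type III genes gave 0 in both. Type II interferon (Ifng) gave 81 and 65 UMIs and was highest in NK cell-like cells, at 81.2 and 57.3 CPM. The receptor chain Ifnar2 was widespread, with 112 and 95.2 CPM in classical monocyte-like and 30.7 and 36.0 CPM in AT2-like cells. At this depth 0 UMIs does not show that a gene is absent.

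Between the libraries, the interstitial macrophage-like cells had the widest difference in the antiviral genes when all cells were counted, an order that does not hold without 2 control cells described below. The sum was 405 CPM (interval 352 to 465, 204 UMIs from 144 cells) in the control and 182 CPM (159 to 207, 231 UMIs from 319 cells) in the fibrosis library, a log2 ratio of −1.16 (−1.43 to −0.88). The intervals of the levels did not overlap. Over all 37 members the log2 ratio was −1.04 (−1.14 to −0.93).

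In these cells 20 members had at least 20 UMIs over both libraries, the minimum set for counting a fold. At least 2-fold lower in fibrosis were 8 of the 20, where 3.86% of all genes measured in the class were, and 1 was at least 2-fold higher, where 8.31% of all genes were. The median log2 ratio of the members was −0.82, against 0.03 over all genes. Ifitm3 was at 707 CPM in control, in 63.2% of cells, and at 229 CPM in fibrosis, in 38.2% of cells, a log2 ratio of −1.63 (−1.86 to −1.40). Ifitm3 was also found in 19.8% and 16.0% of AT2-like cells, which are deeper (median 5660 and 5540.5 UMIs, against 3212.5 and 3239) and hold it at 40.2 and 43.0 CPM. Irf7 was at 43.7 CPM in control and 11.8 CPM in fibrosis, and Isg15 was at 61.6 and 22.03 CPM. Ifi35, which regulates innate signalling, was at 43.7 and 8.66 CPM. Tetherin (Bst2) differed least among the abundant members, at 268 and 191 CPM. Herc6 was the 1 member at least 2-fold higher, at 5.96 and 18.1 CPM, with an interval of the log2 ratio from −0.12 to 3.98 that includes no difference.

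A large share of the antiviral difference in these macrophages rested on 2 control cells. One of 11661 UMIs held 80 antiviral UMIs from 16 of the 21 genes, among them 14 of Isg15, 14 of Irf7 and 11 of the 12 Ifit1 UMIs of the class, and the other, of 3975 UMIs, held 13 from 8 genes. Together they gave 93 of the 204 antiviral UMIs (45.6%) with 3.11% of all UMIs. The first cell had 8 interstitial macrophage markers and 5 classical monocyte markers, and a doublet score of 0.0487. Without both cells, an alternative added after seeing the data, the antiviral sum was 228 CPM in control against 182 CPM in fibrosis, a log2 ratio of −0.32 (−0.66 to 0.02), nearer 0 than that of the neutrophil-like cells without their high cells (−0.68) and of the type 1 dendritic cell-like cells, which had none (−0.66). The members' sum kept a log2 ratio of −0.80. Then 19 members were measured, and 16 of them were lower by any amount, with a median log2 ratio of −0.48. The share of all genes lower by any amount without these cells is not given. At least 2-fold lower were 3, where 3.61% of all genes were, and at least 2-fold higher were 2 (Herc6 and Stat2, neither beyond counting error), where 8.52% of all genes were. The 3 lower were Ifitm3 (−1.300), Ifi35 (−1.73) and Irf9 (−1.18), each beyond counting error, whereas Irf7 (−0.47) and Isg15 (−0.57) were no longer at 2-fold.

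Interferon genes outside the list had lower levels in the same fibrosis macrophages. Of 25 measured genes in a list of other type I induced genes, 25 were lower. At least 2-fold lower were 6, where 3.86% of all genes measured in the class were. All cells were counted here, with the 2 control cells described above among them, and no count without them is given for this list. The share of all genes lower by any amount is not given either. The median log2 ratio over all genes of the class, given above, was close to no difference. Ly6e, an antiviral surface protein expressed at high level, was at 1333 CPM in control and 625 CPM in fibrosis, and Ifi203 was at 123 and 60.6 CPM. The factor Irf1 was at 35.8 and 15.0 CPM. The receptor chain Ifnar2 was at 123 and 136 CPM. Of 7 measured genes induced mainly by type II interferon, 6 were lower and 0 at least 2-fold lower. The class also differed in its markers, whose part in these results was not tested. Its own markers summed to 23441 CPM in control and 14746 CPM in fibrosis, and those of classical monocytes to 1403 and 1708 CPM, with a UMI for 8 and 7 of the 8 markers, Ly6c2 at 13.9 and 12.6 CPM and Vcan at 0 in fibrosis. Nonclassical monocyte markers summed to 234 and 564 CPM and alveolar macrophage markers to 44.0 and 190 CPM.

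**Figure D3:**
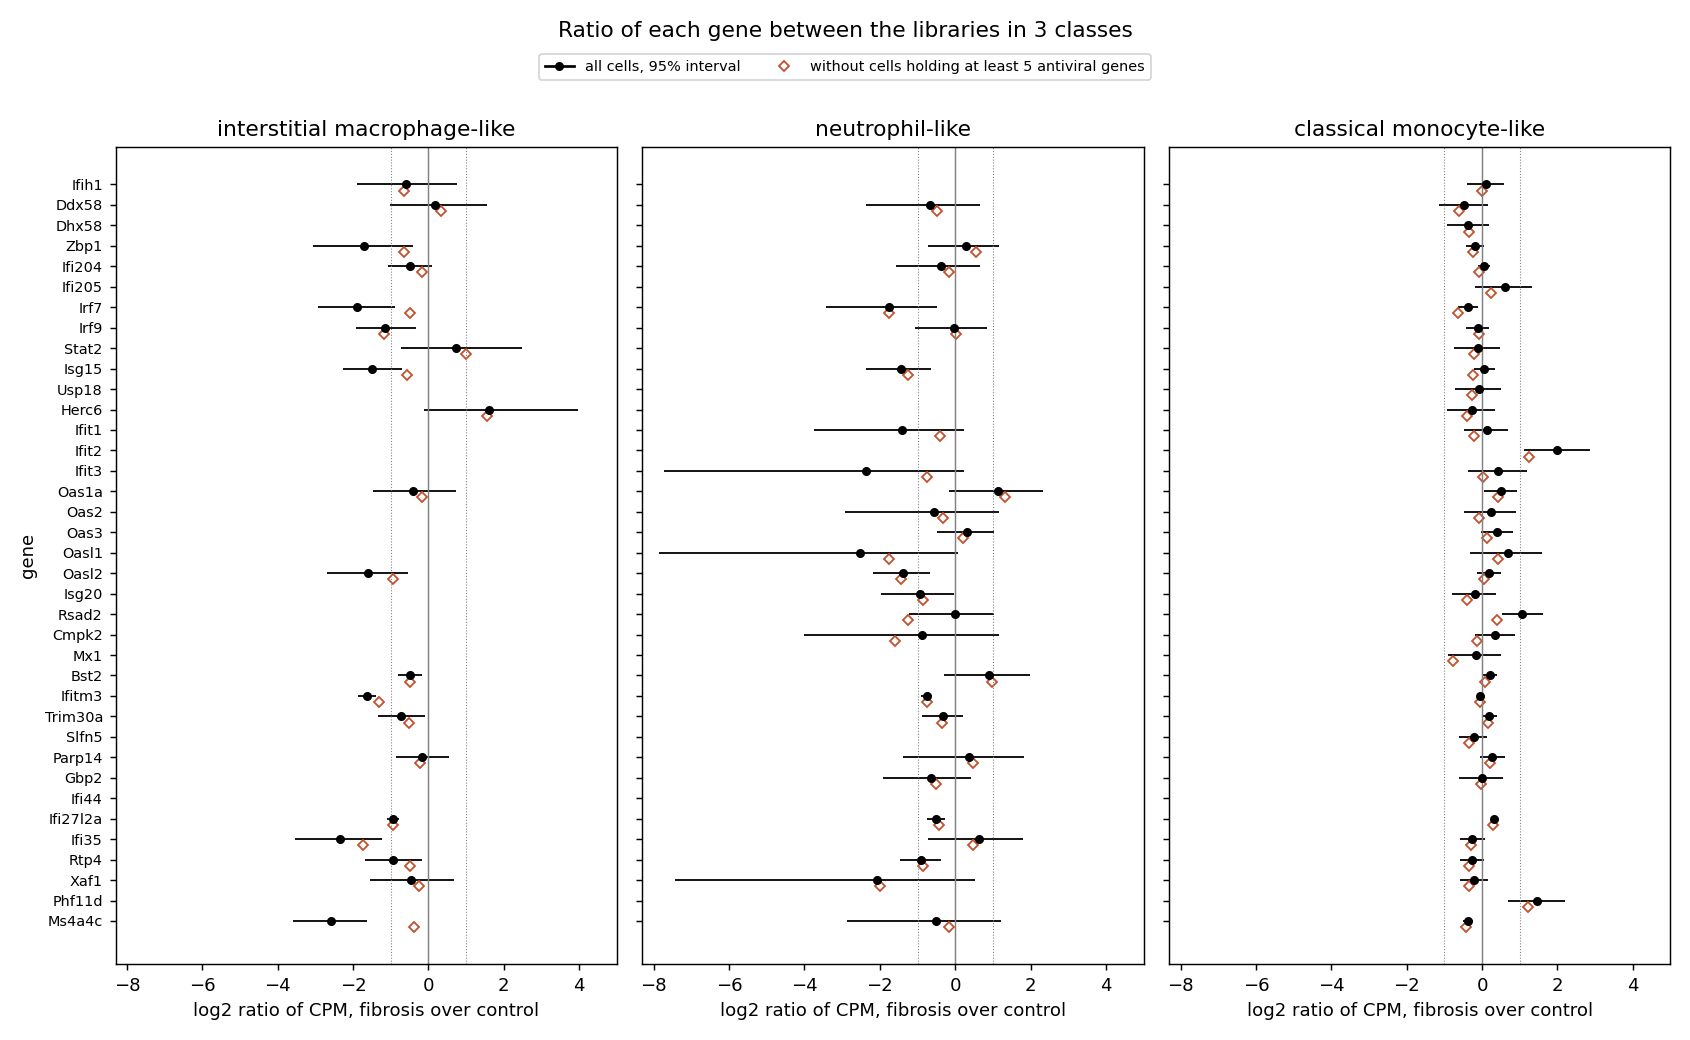
Log2 ratio of CPM, fibrosis over control, for each member with at least 20 UMIs over both libraries in interstitial macrophage-like, neutrophil-like and classical monocyte-like cells. Filled points with 95% intervals use all cells, open diamonds leave out the cells holding at least 5 antiviral genes, and dotted lines mark 2-fold; in the macrophages Irf7, Isg15 and Ms4a4c move inside 2-fold without 2 cells, while Ifitm3, Ifi35 and Irf9 stay outside it.

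In the neutrophil-like cells the antiviral sum was 973 CPM in control and 576 CPM (485 to 679) in fibrosis, a log2 ratio of −0.76 (−1.02 to −0.51). Of 26 measured members 7 were at least 2-fold lower, where 7.9% of all genes were, and 1 (Oas1a, 16.5 and 36.5 CPM) was at least 2-fold higher, where 21.3% were. Only 3 of the 7 had intervals that left out no difference, and these were Irf7 (68.9 and 20.3 CPM), Isg15 (143 and 52.7 CPM) and Oasl2 (180 and 69.0 CPM). Oas3 was at 62.1 and 77.1 CPM in the same cells and Rsad2 at 36.7 and 36.5 CPM, so not every antiviral gene was lower. Without the high cells, described further on, Isg15, Irf7 and Oasl2 kept log2 ratios of −1.25, −1.76 and −1.43, and Rsad2 was at 29.4 and 12.3 CPM, since 1 fibrosis cell held most of its UMIs there. The fibrosis library had 77 neutrophil-like cells against 643. Their club cell markers summed to 8427 CPM in control and 36504 CPM in fibrosis, and their own markers to 30461 and 19023 CPM, and the part of this in the result was not tested.

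Endothelial-like cells had close member sums, 3800 and 3847 CPM. Within them, 5 of 28 measured members were at least 2-fold lower in fibrosis, where 4.49% of all genes were, and 0 at least 2-fold higher, where 5.71% were. These 5 were the RNA sensor Ifih1 (59.3 and 24.2 CPM), Ifi204 (31.5 and 5.26), Usp18 (29.0 and 11.6), Herc6 (60.6 and 27.4) and Ifi35 (180 and 84.2). Isg15 was at 94.6 and 85.2 CPM there, with Ifitm3 at 1678 and 2075 CPM.

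Classical monocyte-like cells showed almost no difference in sum, with a log2 ratio of 0.01 (−0.09 to 0.10) for the antiviral genes. Of 36 measured members 3 were at least 2-fold higher in fibrosis, where 4.7% of all genes were, and 0 at least 2-fold lower, where 3.62% were. Ifit2 was at 3.26 and 12.9 CPM (log2 ratio 1.99, interval 1.10 to 2.86), Phf11d at 5.39 and 14.7 CPM and Rsad2 at 12.0 and 25.3 CPM (1.07, 0.52 to 1.60). Irf7 was at 103 and 79.3 CPM, with a log2 ratio of −0.38. Without the few high cells described next, Rsad2 was under 2-fold, and the log2 ratio of the antiviral sum was −0.22.

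In alveolar macrophage-like cells a single control cell carried the difference in the antiviral sum. Without it 1 of 21 measured members was at least 2-fold lower in fibrosis and 1 at least 2-fold higher. With all cells counted, 3 of 24 measured members were at least 2-fold lower in fibrosis (Ifit1, Rsad2 and Ms4a4c), where 1.73% of all genes were. At least 2-fold higher was 1 (Oas1a), where 2.87% were. The cell, of 9093 UMIs with 7 alveolar macrophage markers and 2 of the next class, held 143 of the 449 antiviral UMIs of the 619 control cells (31.8%). It held 35 of the 35 Ifit1 UMIs, 42 of 44 Rsad2 UMIs and 252 of 252 Cxcl10 UMIs of its class, but 0 of Irf7, Ifitm3 and Ms4a4c. The log2 ratio of the antiviral sum was −0.29 (−0.48 to −0.10) with it and 0.26 without it.

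In the other classes the counts of members were small, though some lay above the share of all genes. At least 2-fold lower were 3 of 24 members in nonclassical monocyte-like cells (3.91% of all genes), 3 of 26 in B cell-like (2.22%), 1 of 26 in T cell-like (1.81%), 1 of 13 in NK cell-like (4.9%), 2 of 10 in type 1 dendritic cell-like (3.38%), 0 of 24 in AT2-like (1.06%) and 0 of 18 in ciliated-like cells (1.18%). At least 2-fold higher were 0, 1, 0, 1, 0, 2 and 0 in the same order, where 3.47%, 5.45%, 5.2%, 3.37%, 4.43%, 4.72% and 5.18% of all genes were. Oasl2 in nonclassical monocyte-like cells was at 51.3 and 14.4 CPM. Ifitm3 in B cell-like cells was at 110 and 233 CPM, although the share of cells with a UMI was 15.4% and 12.3%. In T cell-like cells Ms4a4c was at 55.4 and 27.5 CPM.

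Within some classes, a small number of cells held many antiviral genes at once. Every cell was thinned to 1400 UMIs, below the shallowest cell, and called high when at least 5 different antiviral genes were detected. High cells numbered 62 of 7510 (0.826%) in control and 22 of 6777 (0.325%) in fibrosis. In classical monocyte-like cells they were 18 of 1554 (1.16%, interval 0.688% to 1.82%) in control and 12 of 400 (3.00%, 1.56% to 5.18%) in fibrosis, and the intervals overlap. In neutrophil-like cells they were 22 of 643 (3.42%, 2.16% to 5.13%) in control and 1 of 77 (1.299%) in fibrosis, and these intervals overlap too. These classes held 35.5% (neutrophil-like) and 29.0% (classical monocyte-like) of the control high cells, and classical monocyte-like cells held 54.5% of those in fibrosis. Ambiguous cells gave 8 and 4 of the high cells, and ungated cells gave 5 and 1. At full depth, where the class had a median of 5069.5 UMIs in control and 4059.5 in fibrosis, the shares were 14.0% and 11.0%, so the order of the libraries depends on thinning.

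Other classes had 3 high cells or fewer in a library. Ciliated-like cells had 1 of 118 (0.847%, interval 0.0215% to 4.63%) and 2 of 121 (1.65%, 0.201% to 5.84%), intervals that overlap those of the classical monocyte-like cells. AT2-like cells had 0 of 991 and 0 of 1702, which allows shares up to 0.303% and 0.176%, and B cell-like, NK cell-like and type 1 dendritic cell-like cells also had 0. The limit of a share of 0 was taken here as 3 cells over the cells of the class. A Clopper-Pearson bound would lie higher. The fibrosis interstitial macrophage-like cells had 0 of 319, which allows up to 0.940%, against 2 of 144 (1.39%) in control. The interval of the control share reaches below that limit, so these shares are not separated by counting error. Endothelial-like cells had 3 of 288 and 1 of 229, with antiviral sums of 602 and 500 CPM over all their cells.

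**Figure D4:**
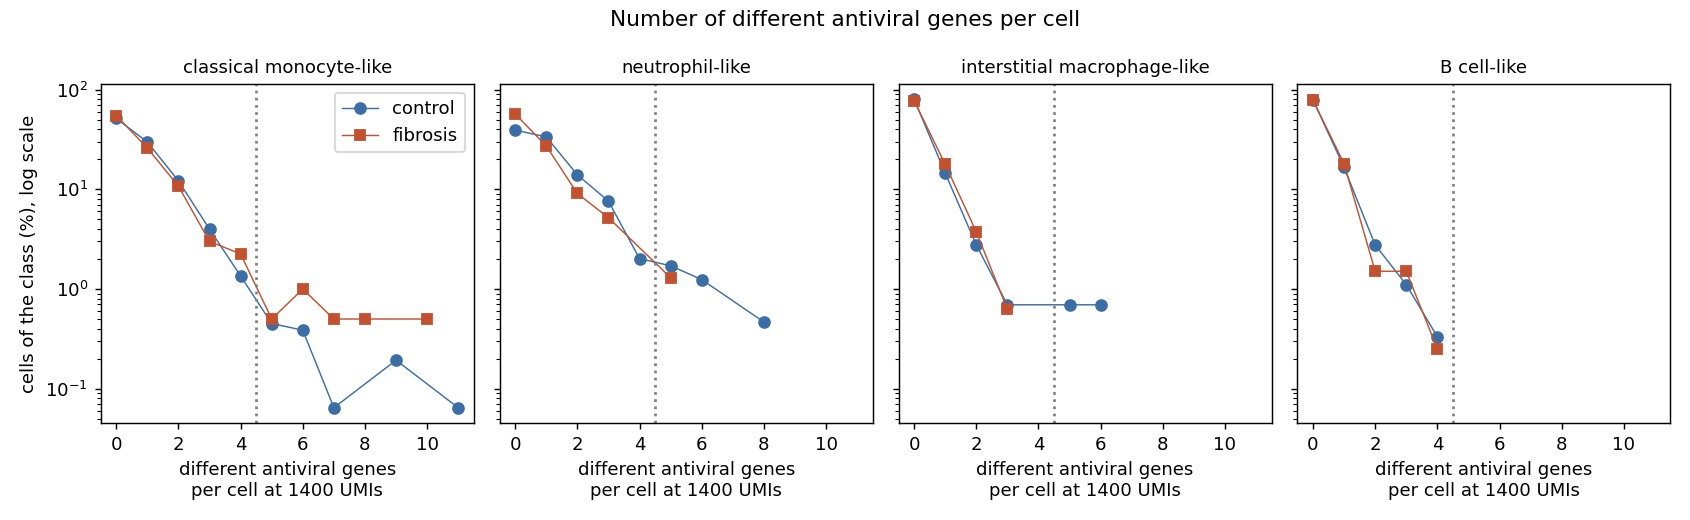
Share of cells of a class (log scale) by the number of different antiviral genes detected at 1400 UMIs per cell, in both libraries, with the threshold of 5 genes as a dotted line and numbers held by no cell left out. Classical monocyte-like cells extend to 11 genes in control and 10 in fibrosis, and no B cell-like cell passes the threshold.

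The minority carried a share of the antiviral RNA well above its number. High classical monocyte-like cells gave 12.6% of the antiviral UMIs of their class in control and 29.8% in fibrosis after thinning, and 10.0% and 24.1% at full depth, with 1.12% and 2.36% of all UMIs. This follows in part from how they were chosen. In the class as a whole 51.5% of control and 55.0% of fibrosis cells had no antiviral UMI at 1400 UMIs, where a Poisson spread at the same mean would give 40.4% and 35.9%. The variance over the mean of the antiviral count was 2.61 and 3.95, and 1.49 and 1.63 without the high cells. In NK cell-like cells it was 1.07 and 1.05, near the value of 1 of a Poisson spread.

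The high classical monocyte-like cells were neither deeper than the others nor higher in doublet score. Their median depth was 4628.5 UMIs against 5074 in control and 3256 against 4095.5 in fibrosis, and their median doublet score was 0.0356 against 0.0422 and 0.00709 against 0.0109. Classical monocyte markers summed to 7810 CPM against 6877 in control and 6147 against 6311 in fibrosis. Neutrophil markers in the control high cells summed to 157 CPM against 171 CPM.

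Genes that took no part in choosing the high cells were higher in them as well. Of the 16 members outside the antiviral subset, 13 were at least 2-fold higher in high than in other classical monocyte-like cells of the control library and 14 in fibrosis, where 13.2% and 13.6% of all genes measured were. Of other type I induced genes, 20 of 28 were at least 2-fold higher in control and 20 of 25 in fibrosis. Of genes induced mainly by type II interferon, 8 of 11 and 7 of 8 were. These counts hold genes that reached the minimum of 20 UMIs only with the high cells, as Cxcl10 did in both libraries. In fibrosis these were Cxcl10 (24 UMIs in the high cells and 2 in the others), Ifi205 (8 and 13) and Phf11d (6 and 19). Receptors and their kinases were at least 2-fold higher in 0 of 8 and 1 of 8, and Ifnar2 was at 112 CPM in both sets of control cells and at 74.7 against 95.7 CPM in fibrosis.

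Single genes show the size of the contrast. Cxcl10, the chemokine that draws T cells through CXCR3, was at 584 CPM in control high cells, in 50% of them, against 1.65 CPM in the others, in 0.846% of them. In fibrosis Cxcl10 was at 597 CPM in 50% of high cells against 1.20 CPM in 0.515% of the others. Stat2, a factor of the response complex, was at 157 against 16.9 CPM in control and 124 against 14.4 CPM in fibrosis. Tor3a, an interferon-responsive ATPase, was at 269 against 47.4 CPM in control and 523 against 35.5 CPM in fibrosis. Irf9, another factor of that complex, was 1.64-fold the level of the other cells in control and 0.383-fold in fibrosis. The fibrosis ratio rests on 1 UMI in the high cells against 108 in the others. Its interval, 0.00961 to 2.18, includes no difference. Tetherin (Bst2) was at 370 against 129 CPM and 747 against 136 CPM, and Ifi205, low in the other cells of the class, at 146 against 6.59 CPM and 199 against 7.82 CPM. Bst2 and Ifi205 are among the promoters printed above, all of which were printed because they hold a match. Of the other members named here, the Stat2 promoter held a match and the Irf9 promoter did not. A link between match and level was not tested.

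By construction the antiviral genes were high in these cells. Ifit1 was at 864 against 7.73 CPM in control and 523 against 6.62 CPM in fibrosis, Isg15 at 887 against 63.0 and 995 against 53.0 CPM, and Rsad2 at 550 against 5.95 and 747 against 7.82 CPM. Among genes that were not members and had at least 20 UMIs in the high cells and more than 3 in the others, the ratios in control were led by Cxcl10, Ifi47 and Phf11b and included Fcgr1, an Fc receptor, at 561 against 82.0 CPM. By the same rule Tor3a, AW112010 and Pyhin1 led in fibrosis, where Cxcl10, with 24 UMIs in the high cells, had a larger ratio but only 2 UMIs in the others.

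**Figure D5:**
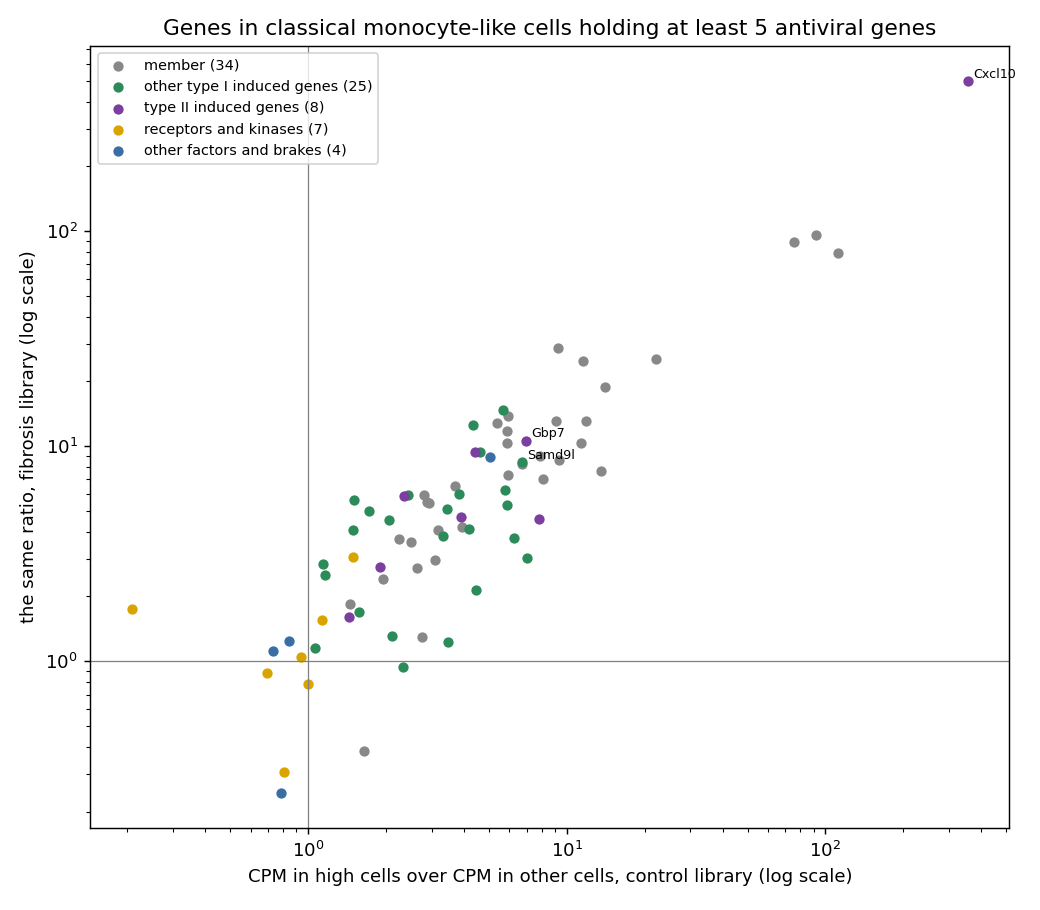
Ratio of the level in high over other classical monocyte-like cells, control library on the x axis and fibrosis library on the y axis (both log scale), 1 point per gene with a ratio in both, coloured by list. Grey lines mark equal levels, Cxcl10 lies furthest from them beyond the members, and receptors and kinases lie near them.

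The 22 control neutrophil-like high cells could be compared on fewer genes. Of 12 measured members outside the antiviral subset 8 were at least 2-fold higher than in the other neutrophil-like cells, where 12.3% of all genes were, 5 of them beyond counting error. Of 13 other type I induced genes 8 were, 3 of them beyond counting error. Of 7 receptors and kinases 1 was, the kinase Jak1 at 299 against 123 CPM, beyond counting error. Ly6e was at 1588 against 470 CPM. Of the members counted, Ms4a4c and Parp14 reached the minimum of 20 UMIs only with the high cells. They had 5 and 2 UMIs in the high cells and 18 and 19 in the others.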

How the data were processed

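Per the submitters' processing notes, reads were handled with bcl2fastq and Cell Ranger 1.3 and the build mm10. The deposited values are raw UMI counts per gene and cell, without normalisation, per the labels and file contents, in 2 libraries of 36632591 and 38090308 UMIs over 8280 and 7173 cells (10x 3′ V2). The labels name no pooling, and each library is 1 mouse.

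From these counts, cells with under 200 genes or over 10% mitochondrial UMIs were left out (1 and 254 control cells, 0 and 228 fibrosis cells). Doublets were removed with scanpy's Scrublet, unequally: 515 control cells (6.42%, the highest scores at 0.8% per 1000 cells, as the automatic threshold marked under 0.5%) and 168 fibrosis cells (2.42%, by the automatic threshold). A cell entered a class with at least 3 different markers and 2 more than the next class, not counting markers found in over 50% of cells. This gate was set after seeing marker counts, and the members and lists were chosen with earlier results of these data known. Ambiguous cells (610 and 1042) and ungated cells (230 and 391) stayed out of the classes. UMIs were summed per class and library. A ratio counted as changed in size at 2-fold with at least 20 UMIs over both libraries. Every member may be named, and related genes by their list. No p-value was computed. Thinning used seed 1. The scripts were tested on simulated data. Sequences and starts came from RefSeq GRCm38.p6. Tools were python 3.11.15, scanpy 1.11.5, numpy 2.4.6 and scipy 1.17.1. Free RNA in droplets was not corrected for. Alternatives were other gates, clusters, doublet, depth and scale settings, fold and UMI minimums, thresholds of a high cell, and motifs. Values of 1 gene of the related lists are not reported here, though the counts over its list include it.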

Additional observations from a re-analysis of the deposited data

Results flagged for a closer look

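Summed over the 37 members, some classes were higher and others lower in the fibrosis library beyond counting error, and with 1 mouse per group the difference between classes was not tested. The log2 ratio of fibrosis over control was 0.20 in AT2-like, 0.18 in B cell-like and 0.043 in classical monocyte-like cells. It was −1.04 in interstitial macrophage-like, −0.64 in neutrophil-like, −0.47 in type 1 dendritic cell-like and −0.067 in nonclassical monocyte-like cells. The values in AT2-like, B cell-like, classical monocyte-like and nonclassical monocyte-like cells each change sign under at least 1 other setting given in the next section, so none of the higher classes kept its direction throughout. Those in interstitial macrophage-like, neutrophil-like and type 1 dendritic cell-like cells kept their sign under every setting run.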

How the results depend on the processing

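No paired analysis was possible because each group is 1 library with no replicate.
The log2 ratio of the antiviral genes in interstitial macrophage-like cells (−1.16) kept its direction, with −0.88 by clusters, −0.45 without the top 1% of cells, −0.46 as a mean of cells and −0.32 without the high cells, an alternative chosen after seeing the data. The ratio in alveolar macrophage-like cells (−0.29) turned to 0.28 by clusters, 0.083 without the top 1% and 0.26 without the high cell, and was −0.59 with a stricter gate and −0.034 as a mean of cells. In other classes the sign turned in AT2-like without doublet removal (0.09 to −0.13), ciliated-like with a stricter gate (−0.01 to 0.30), NK cell-like by clusters (−0.03 to 0.50) and classical monocyte-like cells with a stricter gate (0.01 to −0.15) and without high cells (0.01 to −0.22). Without a turn, it moved in classical monocyte-like as a mean of cells (0.13), endothelial-like as a mean of cells (−0.27 to −0.047) and nonclassical monocyte-like cells by clusters (−0.38 to −0.0024).
For all members, ratios near 0 with all cells (0.029 in ciliated-like and 0.018 in endothelial-like) also turned wherever a negative value follows. Clusters gave −0.79 in interstitial macrophage-like, −0.45 in neutrophil-like, 0.20 in alveolar macrophage-like, −0.053 in endothelial-like, 0.81 in NK cell-like and, with the sign turned, −0.12 in B cell-like and 0.21 in nonclassical monocyte-like cells. Means of cells gave −0.63 in interstitial macrophage-like, −0.44 in neutrophil-like, −0.17 in ciliated-like, 0.16 in endothelial-like, 0.094 in classical monocyte-like, 0.092 in B cell-like and, turned, 0.030 in nonclassical monocyte-like cells. Leaving out the most abundant member gave −0.52 in neutrophil-like, −0.10 in ciliated-like, −0.26 in endothelial-like, 0.14 in classical monocyte-like, −0.22 in T cell-like and, turned, 0.0076 in nonclassical monocyte-like cells. A stricter gate gave 0.31 in ciliated-like, 0.13 in endothelial-like and 0.012 in classical monocyte-like cells. Without the top 1% of cells the values were −0.87 in interstitial macrophage-like, 0.18 in ciliated-like and −0.10 in T cell-like cells. Without high cells they were −0.80 in interstitial macrophage-like, 0.17 in alveolar macrophage-like and, turned, −0.0052 in classical monocyte-like cells. A total without abundant genes gave 0.091 in AT2-like, 0.094 in endothelial-like and −0.17 in ciliated-like cells. Subtracting the median of all genes gave −0.88 in neutrophil-like, −0.15 in ciliated-like and 0.010 in classical monocyte-like cells. Without doublet removal the values were −0.092 in AT2-like, a turned sign, and 0.014 in B cell-like cells, and equal removal gave −0.54 in neutrophil-like cells.
The count of members at least 2-fold lower was 3 with at least 50 UMIs in interstitial macrophage-like, endothelial-like and neutrophil-like cells (8, 5 and 7 as reported), 17 with 1 UMI in each library and 3 without high cells in interstitial macrophage-like cells, and at 1.5-fold 9 in endothelial-like and 13 in neutrophil-like cells. At 1.5-fold 5 members were higher in classical monocyte-like cells.
The share of high classical monocyte-like cells was 6.50% in control and 8.25% in fibrosis with 3 genes, 0.257% and 1.00% with 8, and 14.0% and 11.0% without thinning, so the order of the libraries turns without thinning. The share of control neutrophil-like cells was 13.1% with 3 genes, 0.467% with 8, 2.02% at 1000 UMIs, 6.69% without thinning and 1.71% without Isg15 and Irf7, and in fibrosis it was 0% with 8, at 1000 UMIs and without that pair. The looser motif, AA and GAAA with any 2 bases between on either strand, occurred in 75.0% of the matched members, against 26.7% of all genes. The cause of these shifts was not tested. Depth limits the counts most in the classes with few cells.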

Other observations

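T cell-like cells with a Cd4 UMI and no Cd8 UMI numbered 56 in control and 63 in fibrosis, and their antiviral genes summed to 362 CPM (interval 281 to 460) and 189 CPM (132 to 261). Cells with a Cd8 UMI and no Cd4 UMI numbered 244 and 209, at 233 and 229 CPM. The split was chosen after the other values were known, rests on detection of single genes and was not tested.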
